A study of Homo sapiens with 12 samples.

Results

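Keratins are the intermediate filament proteins of epithelial cells. A filament is built from equal parts of an acidic type I and a basic type II keratin, so the genes are expressed as partners. Simple epithelia such as the gut rest on KRT8 with KRT18 and KRT19, while stratified epithelia of skin and mucosa use other pairs, such as KRT5 with KRT14. Here 10 keratin genes were chosen by name, KRT7, KRT8, KRT18, KRT19, KRT23, KRT80, KRT15, KRT17, KRT10 and KRT6B, and looked up in 3 tables of 12756 genes each. Of these, 8 were listed in all 3 tables. KRT17 and KRT6B were not listed and were not analysed here.

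The RNA came from HCT116, an established line of human colorectal carcinoma cells, collected 48 hours after plating. The groups were an AGO2 knockout, an ANKRD52 knockout, a double knockout of ANKRD52 and CSNK1A1, and the parental line without an edit, with 3 labelled replicates each. AGO2 is the Argonaute that binds microRNAs, ANKRD52 a regulatory subunit of protein phosphatase 6, and CSNK1A1 encodes casein kinase 1 alpha. The study concerns a cycle of Argonaute phosphorylation and its part in microRNA silencing. In edgeR the authors set each knockout against parental cells. The labels do not say whether a knockout was 1 clone, nor whether replicates were separate cultures. The p-values then reflect the spread among these libraries alone, which may be technical.

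Read totals and values per library were not used here, so depth is unknown and each level below is the level of a group. Per the authors' deposited table the log2 fold change of AGO2 was -1.07 in the AGO2 knockout (adjusted p = 0.0477). That of CSNK1A1 was -2.42 in the double knockout (adjusted p = 1.71e-10), where ANKRD52 had -0.65 (adjusted p = 2.32e-05), per the authors' deposited table. ANKRD52 RNA had 0.03 in the ANKRD52 knockout (adjusted p = 0.915) per the authors' deposited table, so its RNA does not check that label. At an adjusted p under 0.05, the share of all genes called was 6.10% for the AGO2 knockout, 13.7% for the ANKRD52 knockout and 43.0% for the double knockout. Median log2 fold changes over all genes lay between 0.00 and 0.01.

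The keratins of simple epithelium were the most abundant members in every group. Their levels were worked out from the fold changes and the mean CPM (reads of a gene scaled to a common library size) of the authors' deposited tables. KRT8, the type II partner of simple epithelia, had an implied level of 1660 CPM in the AGO2 knockout, 1666 CPM in the ANKRD52 knockout and 4412 CPM in the double knockout, against 1530 CPM in parental cells. KRT18, its usual type I partner, had 667, 675 and 1811 CPM in the AGO2, ANKRD52 and double knockouts, against 619 CPM in parental cells. KRT19, a type I keratin that lacks most of the tail domain, had 679, 574 and 1601 CPM in the same knockouts, against 677 CPM in parental cells. For all 3 genes the double knockout was the high group and the other 3 groups lay close together. By implied CPM, KRT8 ranked 3 among the 12756 genes in the double knockout, against 28 in parental cells.

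The remaining members were far less abundant in parental cells. KRT23, a type I keratin studied in colon cancer, had 21.0, 32.7 and 355 CPM in the AGO2, ANKRD52 and double knockouts, against 28.5 CPM in parental cells. KRT80, a type II keratin of epithelial cell borders, had 6.79, 4.82 and 53.5 CPM, against 2.23 CPM in parental cells. KRT15, a type I keratin of basal and hair follicle stem cells, had 6.24, 3.47 and 38.3 CPM, against 3.97 CPM in parental cells. KRT23, KRT80 and KRT15 thus stood highest in the double knockout, as the abundant keratins did. KRT7, a type II keratin of ductal epithelia, was near the lower edge of the tables, with 1.40, 0.608 and 1.80 CPM in the AGO2, ANKRD52 and double knockouts, against 0.882 CPM in parental cells. KRT10, the type I keratin of the upper epidermal layers, had 18.8, 14.9 and 17.1 CPM in the AGO2, ANKRD52 and double knockouts, against 22.5 CPM in parental cells, and was the only member whose highest level was in parental cells.

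Levels of different genes were compared per kilobase, with the shortest principal transcript in GENCODE as the length. In parental cells the implied level per kilobase was 872 CPM for KRT8, 487 for KRT19, 436 for KRT18, 14.3 for KRT23 and 10.6 for KRT10. KRT15 had 1.66, KRT80 0.577 and KRT7 0.503 CPM per kilobase in parental cells. KRT23 reached 179, KRT15 16.0 and KRT80 13.9 CPM per kilobase in the double knockout, against KRT10 at 8.05. With the longest principal transcript, chosen after seeing the data, KRT15 was at 7.32 CPM per kilobase in the double knockout, below KRT10. The order of KRT18 and KRT19 was not the same in every group: in the double knockout KRT18 had 1275 and KRT19 1152 CPM per kilobase, a gap that was not tested between genes.

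**Figure D1:**
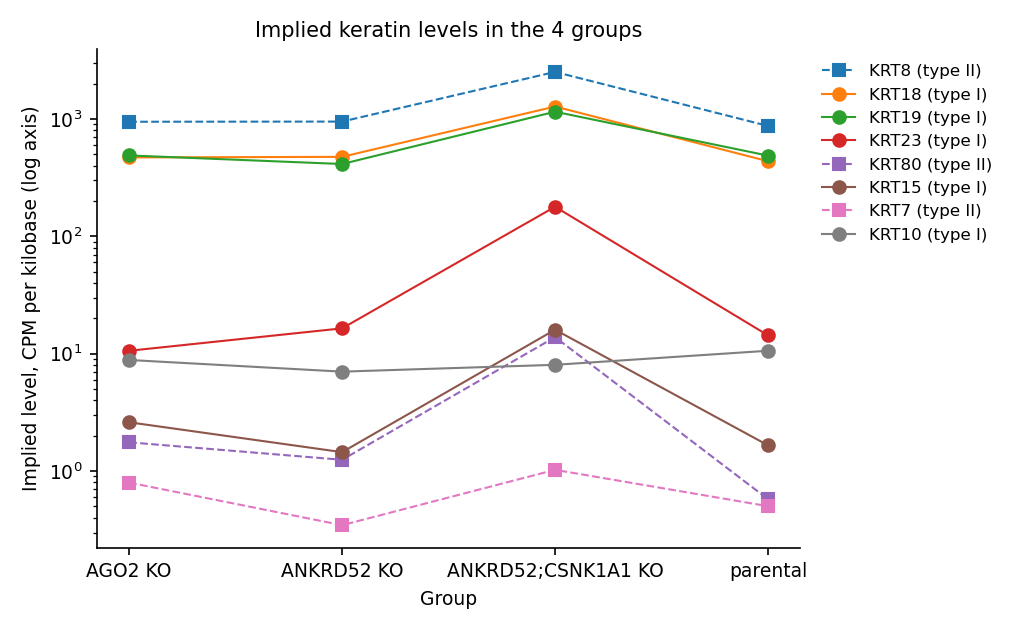
Implied level per kilobase of transcript (CPM, log axis) of the 8 measured keratins in the AGO2 knockout, the ANKRD52 knockout, the double knockout and the parental line. Each point is 1 gene in 1 group, with no error available, and lines only join the points of a gene. KRT23 reaches 179 CPM per kilobase in the double knockout, against 14.3 in parental cells, while KRT10 lies between 7.04 and 10.6 in all 4 groups.

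Summed over the 8 measured members, keratin RNA was 3061 CPM in the AGO2 knockout, 2971 CPM in the ANKRD52 knockout and 8289 CPM in the double knockout, against 2884 CPM in parental cells. These sums were 0.306%, 0.297% and 0.829% of reads in the AGO2, ANKRD52 and double knockouts, against 0.288% in parental cells. KRT8, KRT18 and KRT19 made up 98.2%, 98.1% and 94.4% of the sum in the AGO2, ANKRD52 and double knockouts, against 98.0% in parental cells. The total of type II over type I keratins per kilobase was 0.967, 1.04 and 0.962 in the same knockouts, against 0.919 in parental cells. The ratio of KRT8 to KRT18 per kilobase lay between 1.97 in the double knockout and 2.01 in the AGO2 knockout, with parental cells in between. Total keratin RNA thus stood 2.87-fold higher in the double knockout than in parental cells, while the balance of the types was close in all 4 groups. In bulk RNA, fewer cells of a type and less RNA per cell cannot be told apart.

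In the double knockout 6 of the 8 measured keratins rose, 1 fell and 1 did not pass, against 43.0% of all genes called in either direction, 22.9% higher and 20.1% lower. KRT80 rose 24.0-fold per the authors' deposited table (log2 fold change 4.59, approximate standard error 0.70, adjusted p = 1.19e-09). KRT23 rose 12.5-fold (3.64, standard error 0.42, adjusted p = 2.21e-16) and KRT15 9.65-fold (3.27, standard error 0.33, adjusted p = 3.86e-21) per the authors' deposited table. The simple epithelial keratins moved less and by similar amounts. Per the authors' deposited table KRT18 rose 2.92-fold (log2 fold change 1.55, standard error 0.33, adjusted p = 2.80e-05), KRT8 2.88-fold (1.53, standard error 0.29, adjusted p = 1.80e-06) and KRT19 2.37-fold (1.24, standard error 0.21, adjusted p = 7.09e-08). By type, 4 of 5 type I members and 2 of 3 type II members rose. The median log2 fold change of the 8 members was 1.54, against 0.01 over all genes.

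KRT7 and KRT10 stood apart from the other members in the double knockout. KRT7 had a log2 fold change of 1.03 per the authors' deposited table (95% interval -0.21 to 2.27, adjusted p = 0.183), so a rise of the size seen for KRT19 lies inside its interval. KRT10 fell to 75.9% of the parental level per the authors' deposited table (log2 fold change -0.40, standard error 0.14, adjusted p = 0.0165). Its call was lost when an F distribution (1 and 8 degrees of freedom) was used for the likelihood ratio (adjusted p = 0.0704). The other 6 calls stayed in place, where 29.7% of all genes passed.

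The approximate standard errors of these values were wide for most members. Against genes within 0.5 of the same mean log2 CPM, the approximate standard error, as a median over the 3 comparisons, was larger than that of 99.3% of genes for KRT80, 99.2% for KRT23, 99.1% for KRT18, 94.6% for KRT15 and 93.0% for KRT7. It was larger than that of 90.8% of such genes for KRT19, 87.5% for KRT8 and 52.2% for KRT10. Apart from KRT10, near the middle, the members thus had larger errors than most genes of like mean abundance. For KRT8 that range held only 16 genes, KRT8 included. The mean is taken over all groups, and KRT80, KRT23 and KRT15 stood far lower outside the double knockout. How far low counts there widened their errors was not tested. The spread between libraries was not measured, and which libraries vary cannot be told from these tables.

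In the ANKRD52 knockout 1 of the 8 keratins passed, against 13.7% of all genes, 7.62% higher and 6.04% lower, and that was KRT10. KRT10 fell to 66.4% of the parental level per the authors' deposited table (log2 fold change -0.59, standard error 0.14, adjusted p = 0.00128). Under the F distribution this call was lost as well (adjusted p = 0.104), and 0.0235% of all genes passed. The abundant keratins lay near 0 per the authors' deposited table, with log2 fold changes of 0.12 for KRT8 (95% interval -0.44 to 0.68), 0.12 for KRT18 (-0.52 to 0.76) and -0.24 for KRT19 (-0.65 to 0.17). KRT80 had 1.11 per the authors' deposited table (95% interval -0.10 to 2.33, adjusted p = 0.234). Per the authors' deposited table the 3 other members had log2 fold changes of 0.20 for KRT23, -0.19 for KRT15 and -0.54 for KRT7 (adjusted p = 0.799, 0.752 and 0.650). The median over the 8 members was -0.04, against 0.00 over all genes.

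In the AGO2 knockout 0 of the 8 keratins passed in the authors' edgeR table, against 6.10% of all genes, 3.38% higher and 2.72% lower, and 2 had an unadjusted p under 0.05, as 21.4% of all genes did. These were KRT80, at 1.61 on the log2 scale (95% interval 0.38 to 2.83, adjusted p = 0.0999), and KRT15, at 0.65 (0.04 to 1.26, adjusted p = 0.198), per the authors' deposited table. KRT8 had 0.12 (95% interval -0.44 to 0.68), KRT18 0.11 (-0.53 to 0.75) and KRT19 0.01 (-0.41 to 0.42) per the authors' deposited table, so changes of the size seen in the double knockout lay outside their intervals. Per the authors' deposited table KRT23 had -0.44, KRT7 0.67 and KRT10 -0.26 (adjusted p = 0.538, 0.581 and 0.278). The median over the 8 members was 0.11.

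**Figure D2:**
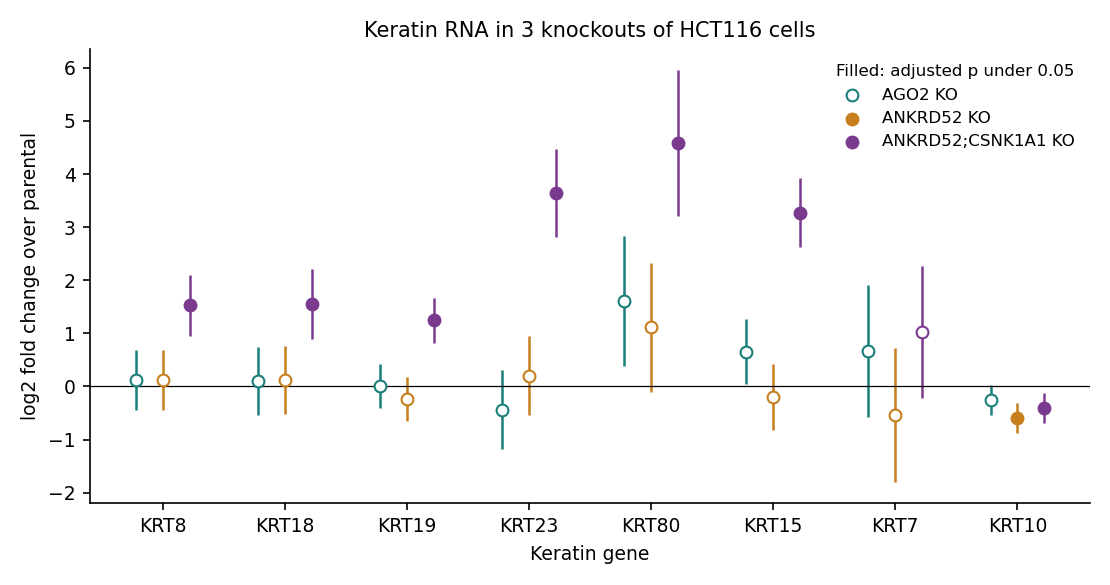
Log2 fold change over parental cells of the 8 measured keratins in the AGO2 knockout, the ANKRD52 knockout and the double knockout (ANKRD52;CSNK1A1 KO), from the authors' deposited tables. Bars are approximate 95% intervals from standard errors rebuilt from the likelihood ratios, and filled points passed an adjusted p of 0.05. In the double knockout 6 keratins lie above 0 with filled points, while KRT10 lies below 0 in all 3.

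The double knockout was also set against each of the other knockouts, by the difference of log2 fold changes, in which the parental level drops out. Against the ANKRD52 knockout, 6 of the 7 keratins abundant enough to test were higher in the double knockout, against 34.5% of all tested genes called and 18.1% called higher. The difference was 3.47 for KRT80 (standard error 0.66, approximate adjusted p = 1.92e-06), 3.47 for KRT15 (0.32, 1.09e-24) and 3.44 for KRT23 (0.40, 4.79e-16). It was 1.48 for KRT19 (standard error 0.21, approximate adjusted p = 6.56e-11), 1.42 for KRT18 (0.33, 0.000136) and 1.41 for KRT8 (0.29, 1.30e-05). These 6 keratins were thus higher in the cells that lacked CSNK1A1 besides ANKRD52. KRT10 differed by 0.19 (95% interval -0.09 to 0.48, approximate adjusted p = 0.309). KRT7 was below the level set for this test, with a difference of 1.57 (95% interval 0.31 to 2.82).

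Against the AGO2 knockout the same 6 keratins were higher in the double knockout, where 42.6% of tested genes were called and 21.6% called higher. The differences ran from 1.24 for KRT19 (approximate adjusted p = 6.51e-08) to 4.08 for KRT23 (2.54e-22). KRT80 differed by 2.98 (standard error 0.66, approximate adjusted p = 5.12e-05). Between the ANKRD52 and AGO2 knockouts 0 of the 7 keratins passed this approximate test, against 9.43% of tested genes, 5.52% higher and 3.91% lower, and 2 had an unadjusted p under 0.05, as 23.4% of tested genes did. These were KRT15, lower in the ANKRD52 knockout by a difference of -0.85 (95% interval -1.46 to -0.23, approximate adjusted p = 0.0647), and KRT10, with -0.33 (-0.61 to -0.05, 0.130). KRT8 differed by 0.00 (95% interval -0.56 to 0.57) and KRT18 by 0.02 (-0.63 to 0.66) between these knockouts.

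Promoter sequence was at hand for 2 of the 8 measured members, KRT8, which rose in the double knockout, and KRT10, which fell. Each window runs from 250 bases before to 50 after a start in RefSeq (GRCh38.p14), on the minus strand, at chr12:52926420-52926719 for KRT8 and chr17:40822565-40822864 for KRT10. The KRT8 window lies at an alternative start and not at that of a transcript marked principal in GENCODE, so its content is not that of the main KRT8 promoters. Both are shown because these members moved in opposite directions. Capitals mark a match to AACCNGNT (a loose word of Grainyhead factors) or to TATAAA (the TATA box, added after the sequences were seen), on either strand.
KRT8: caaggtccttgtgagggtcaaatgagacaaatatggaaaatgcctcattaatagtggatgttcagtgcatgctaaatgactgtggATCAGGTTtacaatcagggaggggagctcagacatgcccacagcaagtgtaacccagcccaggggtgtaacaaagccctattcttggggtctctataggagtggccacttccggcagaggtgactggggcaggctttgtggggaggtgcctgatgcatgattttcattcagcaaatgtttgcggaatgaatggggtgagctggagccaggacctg
KRT10: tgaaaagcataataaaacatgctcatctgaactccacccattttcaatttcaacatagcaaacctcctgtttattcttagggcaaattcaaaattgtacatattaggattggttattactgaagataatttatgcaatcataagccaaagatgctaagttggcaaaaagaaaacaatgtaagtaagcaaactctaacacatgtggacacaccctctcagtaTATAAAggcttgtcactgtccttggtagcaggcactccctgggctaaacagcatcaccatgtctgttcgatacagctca

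The KRT10 window held TATAAA at position -29 from the start, a word found in 11.5% of 35116 windows of the same length, and was 37.7% G and C. The KRT8 window held AACCNGNT at position -165 from the start, a word in 8.18% of all windows, and was 50.7% G and C. Neither held AACCGGTT (0.134% of windows), the E-box CACCTG of ZEB and SNAI factors (20.6%), the AP-1 word TGANTCA (7.71%) or the GC box GGGCGG (45.0%). Both held GGGTG, the CACCC box, at 2 places (59.9% of windows). A match is a description and not a site. KRT8 has other annotated starts in GENCODE, some of them overlapping KRT18 on the opposite strand, and the tables do not show which start was used.

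The tables held 17 keratin rows, members included. In the AGO2 knockout 0 of them passed in the authors' edgeR table, against 6.10% of all genes. There 3 had an unadjusted p under 0.05, or 17.6%, against 21.4% of all genes. The ANKRD52 knockout had 1 rise and 1 fall among them, against 13.7% of all genes called. The double knockout had 13 rises and 1 fall, against 22.9% of all genes called higher and 20.1% lower. Of the 9 rows outside the members 7 rose in the double knockout. KRT5, the type II keratin of basal cells, had an implied level of 1.65 CPM in the double knockout, against 0.0946 CPM in parental cells, and KRT14, its type I partner, had 14.3 CPM, against a parental level under that of 3 reads. KRT36, a hair keratin, had 7.20 CPM in the double knockout, with parental cells again below the 3-read level. No fold is given for KRT14 or KRT36. KRT9, the keratin of palms and soles, had 5.24 CPM in the double knockout against 0.0690 CPM, KRT16, a keratin of wounded epidermis, 3.33 against 0.190 CPM, and KRT13, of moist mucosa, 13.3 against 0.458 CPM, in parental cells. KRT5, KRT9, KRT14, KRT16 and KRT36 lay in parental cells under 0.445 CPM, the lowest mean in the tables, so they were listed through a group where they were high, and their count carries no weight. KRT13 lay just above that mean and may have been listed in the same way.

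KRT5 was the only keratin row that rose in the ANKRD52 knockout, by 3.58 on the log2 scale per the authors' deposited table. Its implied level there was 1.13 CPM, against 0.0946 CPM in parental cells. KRT5 was listed through groups where it was high, so this rise carries no weight either. KRT20, a keratin of differentiated gut epithelium, had 0.52 in the double knockout (95% interval -0.29 to 1.34, adjusted p = 0.317) per the authors' deposited table. KRT222 had -0.49 in the double knockout (adjusted p = 0.0771), and the pseudogene KRT8P41 had 1.29 (adjusted p = 0.00834), per the authors' deposited table. KRT8 and KRT18 have many near-identical pseudogene copies, so the value of KRT8P41, and a small part of those of KRT8 and KRT18, is uncertain. Likewise TMEM99, which overlaps KRT10 on the opposite strand, had -0.42 (ANKRD52 knockout) and -0.40 (double knockout) per the authors' deposited table (adjusted p = 0.0434 and 0.0233). Although the kit marked strand, no source used here says whether the counting did, so reads of KRT10 and TMEM99 may not be told apart.

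The keratin genes sit in a cluster on chromosome 12, which holds the type II genes and KRT18, and a cluster on chromosome 17, which holds the other type I genes. Without the 5 keratins under the lowest mean of the tables in parental cells, 3 of 4 keratin rows on chromosome 12 and 4 of 7 on chromosome 17 rose in the double knockout, against 22.9% of all genes. The chromosome 17 rises include KRT13, at 0.458 CPM in parental cells, barely above that mean, and 13.3 CPM in the double knockout. KRT13 may also have been listed through the double knockout, so its part in the count carries little weight. Among the 22 other measured genes inside the clusters or among the 5 nearest on each side, 9 rose and 2 fell in the double knockout, 11 of 22 in all and near the 43.0% of all genes called, with a median log2 fold change of 0.27. Inside the chromosome 17 cluster, TMEM99 and the hair keratin associated gene KRTAP2-3 (-0.11 in the double knockout, per the authors' deposited table) did not rise. Beside the clusters, IGFBP6 (4.33), a binding protein of insulin-like growth factors, and TNS4 (2.32), a focal adhesion protein, rose in the double knockout per the authors' deposited table. KRT10, KRT20 and KRT222 lie together at 1 end of the chromosome 17 cluster.

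**Figure D3:**
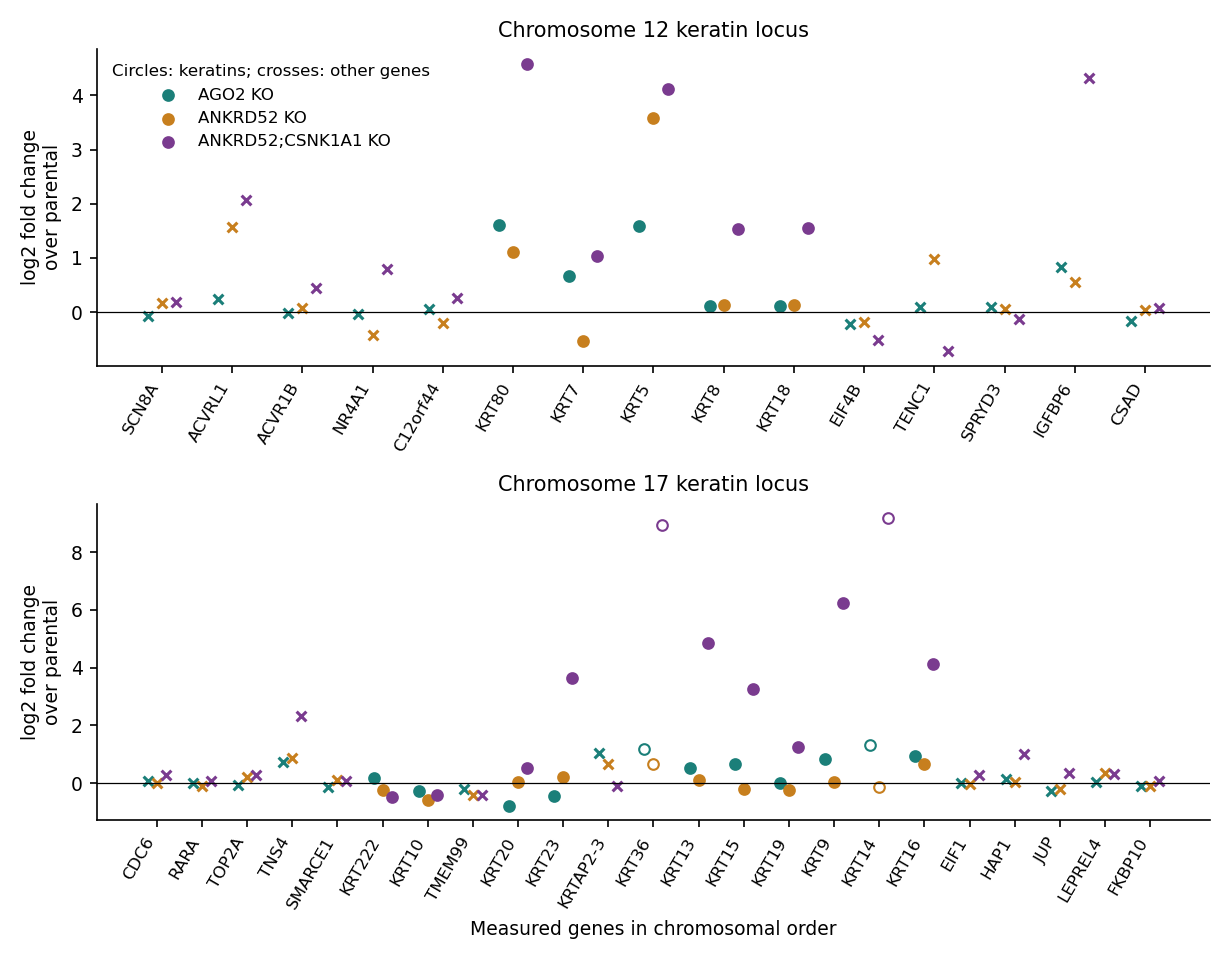
Log2 fold change over parental cells in the AGO2, ANKRD52 and double knockouts, for measured genes in chromosomal order (RefSeq, GRCh38.p14) across the keratin clusters of chromosomes 12 and 17, with 5 genes on each side. Circles are keratins, crosses other genes, and open circles keratins with a group under the level of 3 reads, whose height is not a bound. On chromosome 17 the high values in the double knockout run from KRT23 to KRT16, and KRT222, KRT10 and TMEM99 lie below 0.

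Genes whose products hold keratin filaments at the membrane were examined as a list of 20, of which 18 were measured. Of these 10 rose and 1 fell in the double knockout, 61.1% against 43.0% of all genes called, with a median log2 fold change of 0.50 against 0.01 over all genes. The desmosomal cadherin DSC2 rose 5.28-fold, DSG2 by 0.81 and COL17A1, a hemidesmosome collagen, by 4.47 on the log2 scale per the authors' deposited table (adjusted p = 1.72e-57, 2.21e-11 and 1.91e-20). DSG3, a desmosomal cadherin of stratified epithelia, had 19.1 CPM in the double knockout, against 0.0351 CPM in parental cells. It was listed only through the double knockout, and without it 9 of 17 rose. The plakin EPPK1 fell by 0.73, per the authors' deposited table. In the ANKRD52 knockout 1 of the 18 rose (ITGB4) and 2 fell (PKP3 and EPPK1), 16.7% called and near the 13.7% of all genes. In the AGO2 knockout 1 rose (COL17A1) and 2 fell (EPPK1 and PKP3), 16.7% against 6.10% of all genes.

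Of the other intermediate filament genes, 10 of 16 were measured. In the ANKRD52 knockout 5 of the 10 rose, against 13.7% of all genes called, namely VIM (4.44), SYNM (1.26), NES (1.05), SYNC (0.68) and DES (1.18) per the authors' deposited table. As many were called in the double knockout, near the 43.0% of all genes, where 3 rose, DES (2.24), NES (1.13) and the lamin LMNA (0.75), and 2 fell, LMNB2 (-0.46) and LMNB1 (-0.31), per the authors' deposited table. VIM, the filament protein of mesenchymal cells, had 1.10 in the double knockout (adjusted p = 0.110) and rose by 2.57 in the AGO2 knockout (adjusted p = 0.00175) per the authors' deposited table. VIM was at 39.2 CPM in the ANKRD52 knockout, against 1.81 CPM in parental cells, a comparison in which none of the 8 keratins rose.

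Of 24 measured transcription factors that act on keratin promoters or epithelial fate, 9 rose and 1 fell in the double knockout, 5 rose and 7 fell in the ANKRD52 knockout, and 2 rose in the AGO2 knockout. In the double knockout 41.7% of the list was called, near the 43.0% of all genes, but mostly higher. Over all genes 22.9% were called higher and 20.1% lower. In the ANKRD52 knockout 12 of 24 were called, against 13.7% of all genes, and in the AGO2 knockout 8.33%, against 6.10%. ZEB2, 1 of the 5 rises in the ANKRD52 knockout, had 1.51 CPM there, against 0.0536 CPM in parental cells. It was listed only through the ANKRD52 knockout, so its rise carries no weight. Without the 2 factors under the lowest mean of the tables in parental cells, 4 of 22 rose and 7 fell there. EHF, an epithelial ETS factor, rose by 6.55, CDX2, a gut factor, by 2.67 and KLF5, a factor of crypt and basal cells, by 2.31 in the double knockout per the authors' deposited table (adjusted p = 3.51e-11, 1.93e-105 and 6.90e-46). EHF and KLF5 also rose in the ANKRD52 knockout, by 2.64 and 0.41 per the authors' deposited table (adjusted p = 0.00949 and 0.0485). CDX2 had -0.27 there (adjusted p = 0.116), and EHF had 2.24 in the AGO2 knockout (adjusted p = 0.0523), per the authors' deposited table. GRHL2, a Grainyhead factor, fell by 2.03 in the ANKRD52 knockout (adjusted p = 0.00830) and had 0.36 in the double knockout (adjusted p = 0.634) per the authors' deposited table. In the ANKRD52 knockout the Grainyhead factor GRHL1 had -0.63 and GRHL3 had 2.62 per the authors' deposited table (adjusted p = 0.0209 and 0.0505). GRHL3 was at 0.242 CPM in parental cells, under the lowest mean of the tables. TP63, the basal epithelial regulator, was not listed. Of 19 genes of keratin folding, modification and turnover, 3 rose and 2 fell in the double knockout, 26.3% against 43.0% of all genes called, with a median of -0.06. Among them TRIM16 rose by 1.06, the kinase PRKCE fell by 0.83 and the ubiquitin ligase STUB1 fell by 0.53 per the authors' deposited table.

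**Figure D4:**
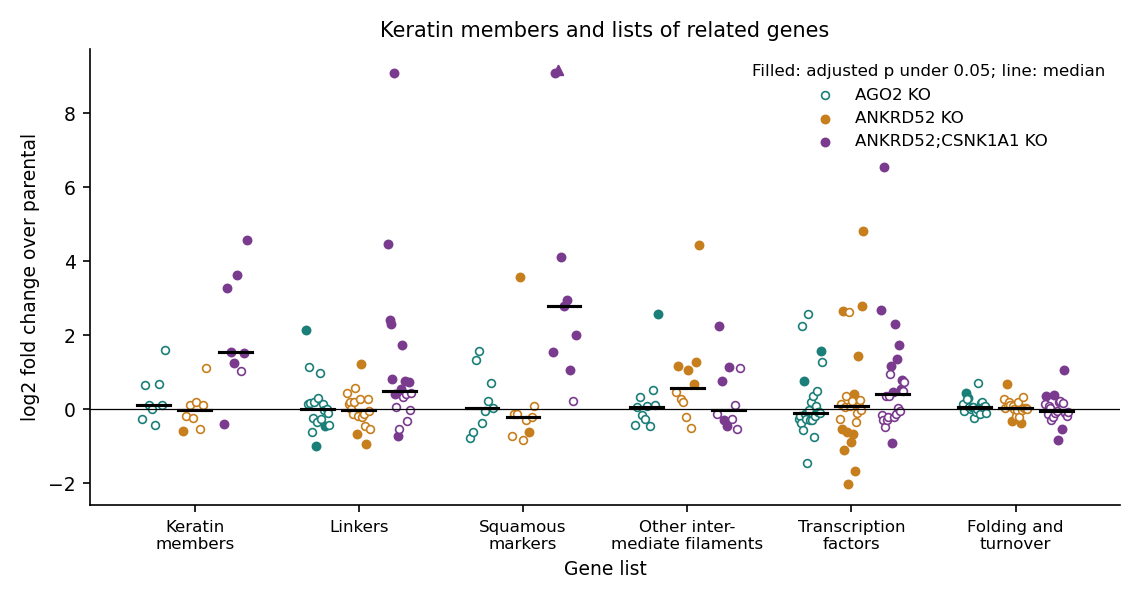
Log2 fold change over parental cells in the AGO2, ANKRD52 and double knockouts for the 8 keratins and 5 lists of related genes, from the authors' deposited tables. Each point is a gene, filled where the adjusted p was under 0.05, the triangle marks KRT14 in the double knockout, whose parental level was under that of 3 reads, and black lines are medians. In the double knockout the medians were 1.54 for the keratins and 0.50 for the linkers, and 4 of the 9 squamous markers were listed only through a group where they were high.

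Markers of epithelium and of other cell types were read beside the keratins. All 8 epithelial markers were measured, and without the keratins they summed to 556, 351 and 862 CPM in the AGO2, ANKRD52 and double knockouts, against 667 CPM in parental cells. CDH1, the cadherin of epithelial junctions, made up the higher sum in the double knockout, with 312 CPM against 114 CPM in parental cells, and the 4 others summed to 550.2 CPM against 553 CPM. CLDN3, a tight junction claudin, fell to 3.52 CPM in the double knockout, against 11.7 CPM in parental cells (adjusted p = 1.67e-09 per the authors' deposited table). EPCAM, CDH1, CLDN4 and CLDN7 fell in the ANKRD52 knockout, while KRT8, KRT18 and KRT19 did not pass there. Of 16 squamous markers 9 were measured and 8 rose in the double knockout, KRT5, KRT14 and DSG3 (also on the linker list) among them. KRT5, KRT14, DSG3 and LY6D lay in parental cells under the lowest mean of the tables, so their rises carry no weight, and of the 5 others 4 rose, against 22.9% of all genes. The epidermal crosslinking enzyme TGM1 rose 4.01-fold and SERPINB5 2.10-fold in the double knockout per the authors' deposited table. The 9 summed to 351, 192 and 415 CPM in the AGO2, ANKRD52 and double knockouts, against 236 CPM in parental cells. Without SFN, the abundant marker that did not pass, the sums were 72.6, 45.2 and 214 CPM in the AGO2, ANKRD52 and double knockouts, against 65.1 CPM in parental cells. The other 7 were not listed, TP63, KRT1 and IVL among them. Of 9 colonocyte markers 4 were measured and 3 rose in the double knockout, CDX2, VIL1 and MUC13, while KRT20 did not pass. The 4 summed to 24.9, 25.1 and 209 CPM in the AGO2, ANKRD52 and double knockouts, against 29.8 CPM in parental cells. CDX2 made up most of this, with 178 CPM in the double knockout against 28.0 CPM in parental cells. VIL1 and MUC13 were at 0.0485 and 0.0554 CPM in parental cells and so were listed only through a group where they were high. Of the 2 others 1 rose, against 22.9% of all genes. CDX1, CDH17, LGALS4, GPA33 and PHGR1 were not listed. Of 5 leukocyte, 3 endothelial and 6 fibroblast markers, 2, 1 and 1 were measured, and in the double knockout they summed to 9.70, 2.53 and 14.1 CPM, against 4.26, 0.530 and 11.9 CPM in parental cells. Of the leukocyte markers, CD68 fell to an implied 1.07 CPM in the double knockout, against 4.18 CPM in parental cells. Its adjusted p was 3.24e-08 per the authors' deposited table. LYZ had an implied 8.63 CPM in the double knockout, against 0.0788 CPM in parental cells. LYZ was listed only through the double knockout, so its rise carries no weight. The endothelial marker VWF rose by 2.25 on the log2 scale in the double knockout (adjusted p = 1.61e-11), while COL1A1 of fibroblasts had 0.24 (adjusted p = 0.281), per the authors' deposited table. In the AGO2 and ANKRD52 knockouts the leukocyte markers summed to 6.57 and 2.65 CPM, the endothelial to 0.526 and 0.747 CPM and the fibroblast to 12.4 and 12.4 CPM. PTPRC, CD3E, PECAM1, CDH5, COL1A2, COL3A1, DCN, LUM and PDGFRB were among those not listed. The part of these markers' cell types in the keratin values was not tested.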

How the data were processed

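The 3 deposited tables are the authors' edgeR comparisons, per the file headers. Each holds the authors' log2 fold change and mean log2 CPM, a likelihood ratio score deposited by the authors, and a deposited p-value with its adjusted value. The build hg19 and the tools edgeR 3.8.6, TopHat2 2.0.12 and featureCounts 1.4.6 stand, without their roles, in the submitters' processing notes, and the labels' protocols describe stranded libraries and a kit of 75 cycles. In each table all 12756 p-values matched the chi-square tail of the likelihood ratio within 1e-06, and the adjustment was checked to be that of Benjamini and Hochberg. Count tests provided for in the design gave way to these values.

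Approximate standard errors are the absolute log2 fold change over the root of the likelihood ratio. Knockouts were compared by subtracting log2 fold changes. The variance was the average of the squared errors, the test normal, and p-values were adjusted (Benjamini-Hochberg) over the 11876 genes whose mean log2 CPM reached 1. This was tested on simulated data. The simulation gave all groups equal variance, as the average assumes, so it does not check groups that differ in error. Group levels were solved for 4 equal groups, given the 3 fold changes and the mean CPM. A group without reads lies at 0.00383 CPM and one with 3 reads at 0.0345 CPM, if the prior count was 0.125. The members and lists were chosen with earlier results of these data known. The naming rule covered the members, all other keratin rows and the targeted genes. It also covered members of the lists by smallest p and the 3 nearest genes per member, though not all of these are named. GRHL1, GRHL2, GRHL3, IGFBP6, TNS4, KRTAP2-3 and TMEM99 were named after their values were seen. The rule also takes up to 4 members per list and table, and any list member counted among 5 or fewer. GENCODE 29 gave lengths, RefSeq gene order. A list member is not reported here. Software was matplotlib 3.10.9, pandas 2.3.3, scipy 1.17.1 and numpy 2.4.6 under Python 3.11.15.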

Additional observations from a re-analysis of the deposited data

How the results depend on the processing

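Settings tried were an adjusted p of 0.01 or 0.1 and adjustment over genes whose mean log2 CPM reached 1. Others were centring on the median of all genes, an F distribution, and a difference variance taken as a sum. The 6 rises of the double knockout passed each time. Only centring shifts the fold changes, by 0.01 at most, so these settings could not test their direction. At an adjusted p under 0.1 the AGO2 knockout had 1 keratin called (KRT80) in place of 0. Under the F distribution the ANKRD52 knockout had 0 called in place of 1 (KRT10), and the double knockout 6 in place of 7, as at an adjusted p under 0.01. With all genes tested, 7 keratins differed between the double and ANKRD52 knockouts in place of 6. Reading the mean log2 CPM as a mean of the 4 log2 levels put the parental levels of KRT23, KRT80 and KRT15 at 60.6, 4.74 and 6.82 CPM, in place of 28.5, 2.23 and 3.97 CPM, and leaves folds as they are. With the longest principal transcript, chosen after seeing the data, the parental level of KRT15 was 0.759 CPM per kilobase in place of 1.66, and in the double knockout 7.32 in place of 16.0, below KRT10. No paired analysis was possible because the tables hold no values per library. For the same reason leaving out each replicate and other count tools were not run, and which library drives a wide error is unknown.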

Other observations

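For each member whose mean log2 CPM reached 1, the 3 non-keratin genes nearest to it over the 3 log2 fold changes were looked up among 11864 genes. The 3 comparisons share the parental libraries, so a deviation of those libraries is part of every such pattern. Nearest to KRT8 were FAM169A (distance 0.0844), SNPH (0.0882) and ACTN4 (0.103), an actin crosslinker with 0.11, 0.07 and 1.44 in the AGO2, ANKRD52 and double knockouts in the authors' deposited tables. FAM169A and SNPH were also among the 3 nearest to KRT18, after WIPI1 (0.0933). Nearest to KRT19 were TTC9 (0.0824), SLC37A2 (0.101) and GPR56 (0.101). KRT23 lay nearest to SLCO3A1 (0.242), and KRT15 to SYTL2 (0.418). The nearest gene to KRT80 was LOXL4 (0.565), a lysyl oxidase of the matrix, with 1.99, 1.52 and 4.47 in the AGO2, ANKRD52 and double knockouts in the authors' deposited tables, and the second was COL17A1 (0.866). KRT10 lay nearest to SNHG3 (0.0373).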
